A study of Drosophila melanogaster with 2 samples.

Results

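Of the 2132 peaks that the conservative list held on the chromosome arms, 571 had their summit upstream of a single promoter. They were chosen by position alone: the summit lay within 500 bp of an annotated transcription start site (TSS), on the upstream side of the nearest one, and not within 500 bp of a pair of protein-coding TSSs that face away from each other at most 500 bp apart. The data came from chromatin immunoprecipitation followed by sequencing (ChIP-seq) of whole Drosophila melanogaster embryos aged 0 to 8 hours. The embryos came from 1 transgenic strain, CG8765-GFP, whose flies make the protein of the gene CG8765 as a fusion with enhanced green fluorescent protein (eGFP), and the precipitation used an antibody against GFP. All samples carried the transgene, so the 2 biological replicates form 1 group and no condition was compared. Whole embryos mix all cell types, and more bound cells cannot be told apart from more binding per cell. The labels do not say which promoter drives the fusion or how many embryos were pooled, and the control experiment they name was not used here. The conservative list holds the authors' peaks past a threshold on the irreproducible discovery rate (IDR), which rates a peak by how steadily it ranks when peaks are called more than once. The signal of a peak is the authors' own value in unstated units, and the read depth behind it is unknown.

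A promoter directs RNA polymerase to the start of a gene, and the sequence just upstream of the start carries binding sites for transcription factors. In Drosophila, promoters of genes used by most cells often hold the DNA replication-related element (DRE, TATCGATA), which the factor DREF binds, or one of the core promoter sequences catalogued by Ohler and colleagues. Promoters of developmentally regulated genes more often hold a TATA box or GAGA elements, the sites of the GAGA factor encoded by Trl. Genes whose starts lie back to back share 1 upstream region, which is why peaks near such coding pairs at most 500 bp apart are left out here. A TSS of another gene still lay within 500 bp of the summit in 76 of the 571 members (13.3%).

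Windows that reach 100 bases to each side of the summit are printed for 9 members from the dm6 reference, 5′ to 3′ along the gene. The first 4 belong to the members with the highest signal outside the arm whose sequence is not shown. Those at pyd, lncRNA:CR31044 and CG11151 have the highest signal, among members not already shown, of the holders of the 3 motifs with the smallest p (Ohler motif 7, the TATA string and the DRE). The strongest holder of the TATA string is CG13921, which is among the first 4. Those at MFS10 and CG18549 show the 6-mer ACAGTG and the GAGA element and were chosen after the values were seen. Capitals mark each occurrence, on either strand, of those 5 sequences and of the 6-mer CGATAG, and the summit is the base at the centre.
Ugalt, chrX:2703791-2703991, minus strand: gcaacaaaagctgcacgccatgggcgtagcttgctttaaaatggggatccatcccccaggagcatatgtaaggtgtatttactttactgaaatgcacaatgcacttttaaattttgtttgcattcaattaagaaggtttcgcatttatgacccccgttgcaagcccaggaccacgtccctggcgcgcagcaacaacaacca
CG14100, chr3L:19590527-19590727, minus strand: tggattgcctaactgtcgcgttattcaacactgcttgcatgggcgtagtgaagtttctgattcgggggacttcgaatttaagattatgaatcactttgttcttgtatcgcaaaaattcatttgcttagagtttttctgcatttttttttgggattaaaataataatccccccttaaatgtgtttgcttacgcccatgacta
lawc, chrX:8410439-8410639, minus strand: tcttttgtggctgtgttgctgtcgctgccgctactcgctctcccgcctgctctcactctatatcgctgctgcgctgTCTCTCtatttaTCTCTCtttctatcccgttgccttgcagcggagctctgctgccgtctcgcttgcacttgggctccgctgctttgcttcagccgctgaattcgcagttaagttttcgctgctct
CG13921, chr3L:1746681-1746881, plus strand: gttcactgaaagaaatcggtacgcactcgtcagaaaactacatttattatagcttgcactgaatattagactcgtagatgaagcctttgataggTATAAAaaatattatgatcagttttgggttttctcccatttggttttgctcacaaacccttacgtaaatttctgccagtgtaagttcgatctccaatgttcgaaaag
pyd, chr3R:8857896-8858096, minus strand: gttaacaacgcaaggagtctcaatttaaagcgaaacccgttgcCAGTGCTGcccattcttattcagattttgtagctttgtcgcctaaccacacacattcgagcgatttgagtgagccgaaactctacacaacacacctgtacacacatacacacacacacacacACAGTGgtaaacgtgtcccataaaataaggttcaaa
lncRNA:CR31044, chr3R:29214344-29214544, plus strand: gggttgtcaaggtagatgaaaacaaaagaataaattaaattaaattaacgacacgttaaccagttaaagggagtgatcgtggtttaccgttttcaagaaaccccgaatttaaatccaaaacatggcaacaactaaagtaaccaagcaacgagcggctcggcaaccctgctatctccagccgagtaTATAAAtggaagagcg
CG11151, chrX:13739422-13739622, plus strand: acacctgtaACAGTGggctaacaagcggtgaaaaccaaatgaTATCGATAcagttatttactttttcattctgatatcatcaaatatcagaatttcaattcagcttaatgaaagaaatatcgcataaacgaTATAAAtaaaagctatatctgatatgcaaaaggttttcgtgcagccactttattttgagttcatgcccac
MFS10, chrX:13131254-13131454, plus strand: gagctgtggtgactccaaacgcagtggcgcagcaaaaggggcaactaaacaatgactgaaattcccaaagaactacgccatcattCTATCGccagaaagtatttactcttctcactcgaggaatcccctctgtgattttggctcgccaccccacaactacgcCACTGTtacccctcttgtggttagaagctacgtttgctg
CG18549, chr3R:12449052-12449252, plus strand: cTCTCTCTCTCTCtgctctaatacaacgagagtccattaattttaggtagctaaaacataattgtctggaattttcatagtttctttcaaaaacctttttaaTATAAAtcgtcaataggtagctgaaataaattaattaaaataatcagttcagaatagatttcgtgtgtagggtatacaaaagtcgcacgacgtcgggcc
Neither the Ugalt nor the CG14100 window, under the strongest of these members, held any of the marked sequences. The lawc window held 2 GAGA elements, read as TCTCTC on the gene's strand, and the CG13921 window held a TATA string that starts 6 bases before the summit. At CG18549 an unbroken TC repeat began 99 bases before the summit. At CG11151 the DRE began 58 bases before the summit and an ACAGTG 91 bases before it. The share of G and C ran from 32.8% at CG11151 to 55.2% at lawc.

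The summits gathered between 50 and 250 bp before the start. Their median position was -149 bp (negative is upstream), with quartiles at -238.5 and -88 bp. The fullest step of 50 bp was that from 100 to 150 bp upstream, with 121 members. Signal varied with position. Its median was 87.9 in the 61 members within 50 bp of the TSS and 88.6 in the 107 members from 50 to 100 bp upstream. It was 144 in the 87 members from 150 to 200 bp upstream and 138 in the 102 members from 200 to 300 bp, and it was 102 in the 93 members farther out. So the median was lowest in the members nearest to the start, although Ugalt, among the strongest members (1318), had its summit at -39 bp. Of the 571 members, 340 were intergenic, 135 lay in an intron and 42 in an exon of their own gene, and 34 and 20 lay in an intron and an exon of another gene. A later TSS of the gene was the nearest one for 177 members, whose median signal of 115 compares with 105 for the 394 at a first TSS.

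**Figure D1:**
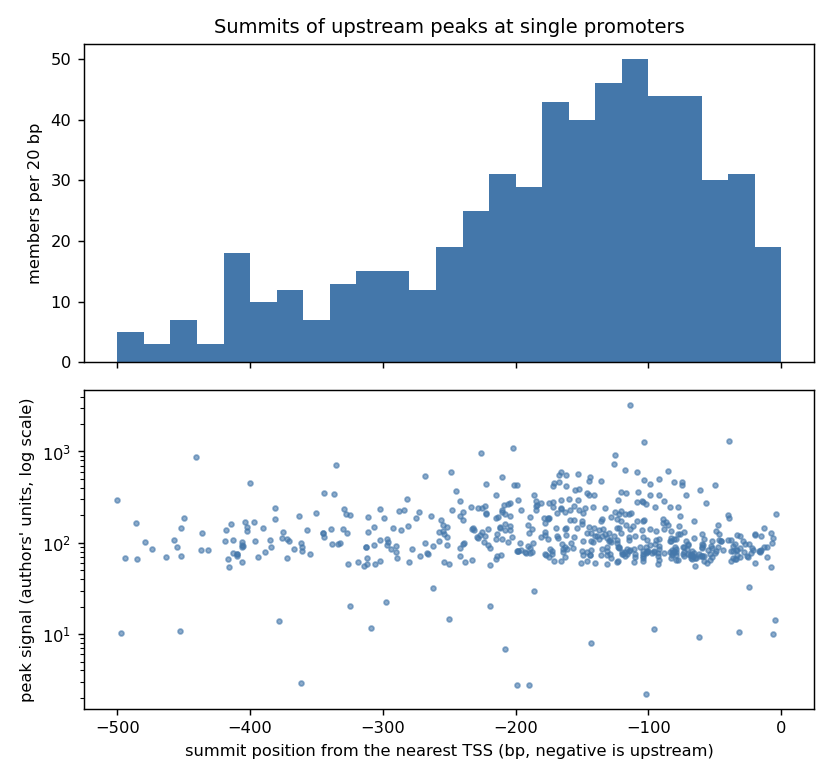
Summit positions of the 571 members (top, members per 20 bp) and their signal in the conservative list (bottom, 1 point per member, log scale) against the distance from the nearest TSS in bp. Positions have their median at -149 bp, and the 20 members under a signal of 30 are spread over the whole range.

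The strongest member lay at Dll (Distal-less), which encodes a homeodomain factor of limb development. Its signal was 3244 in the conservative list, 912 in replicate 1's ranked list and 2320 in replicate 2's, and it ranked 1 in both. Ugalt, whose product carries UDP-galactose into the Golgi, had 1318 in the conservative list with 614 and 716 in the replicates, at ranks 4 and 5. CG14100 had 1272, with 502 and 777 in the replicates, at ranks 8 and 4. These 3, with px and CG1888, also had the best mean ranks of all members. At px, a wing vein patterning gene, the signal was 1088, with 653 and 444 in the replicates, at ranks 3 and 22. At CG1888 it was 962, with 519 and 448, at ranks 7 and 21. Whether signals share a scale between lists is not stated, so the replicates are set against each other by rank. The ranked lists differ in length, with 106449 peaks in replicate 1 and 125328 in replicate 2.

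The next 15 members ranged in signal from 524 to 904. The largest 2 were at mRpL41 (904), which encodes a protein of the mitochondrial ribosome, and at lawc (871). The others were CG13921, pyd (a cell junction protein), lncRNA:CR31044, PNPase (a mitochondrial RNA-degrading enzyme), Fkbp14 (a protein-folding enzyme of the endoplasmic reticulum), lncRNA:CR43651, Sox14 (a transcription factor), gish (a casein kinase), MFS10, lncRNA:CR44339, Rtnl1 (a reticulon of the endoplasmic reticulum), NimC4 (a phagocytosis receptor) and CG18549. Among the 20 strongest, 2 stood apart in rank between the replicates. The peak at lncRNA:CR43651 had a signal of 118 and rank 297 in replicate 1 but 474 and rank 19 in replicate 2. NimC4 went the other way, with 372 and rank 21 in replicate 1 and 149 and rank 211 in replicate 2. The 3 widest intervals were 505 bp at the first TSS of lawc, 487 bp at Dll and 391 bp at a later TSS of lawc.

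**Figure D2:**
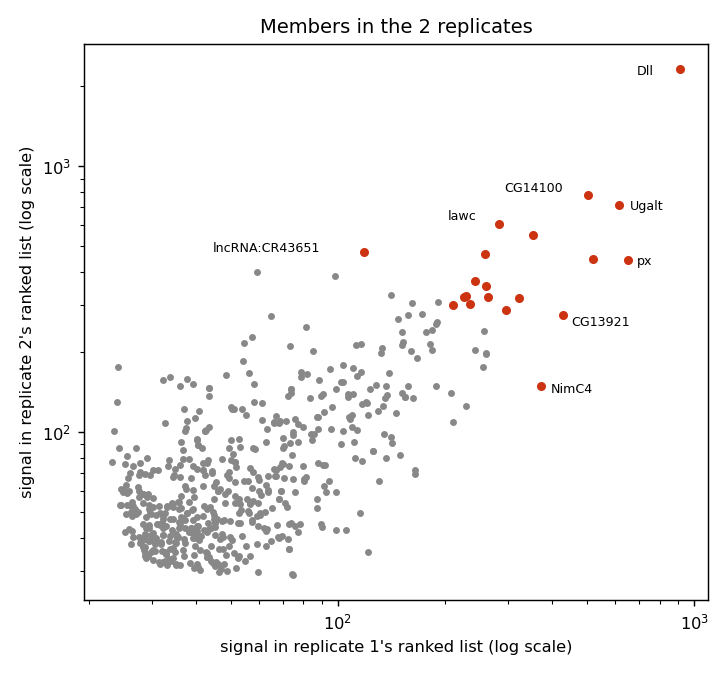
Signal of each member in the ranked lists of replicate 1 and replicate 2 (log scales of the values in each list, units unstated, 567 members ranked in both). Red points are the 20 members with the highest signal in the conservative list. Dll is highest in both lists, and lncRNA:CR43651 and NimC4 lie on opposite sides of the others.

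Members were found in each replicate's own thresholded list about as often as in the other's, with 381 in replicate 1's and 376 in replicate 2's. Both lists held 273 members (47.8%), neither held 87, and the rest were split into 108 and 103. Across the 567 members ranked in both replicates, Spearman's rho of the ranks was 0.566, given as a description because the peaks share the 2 libraries and were selected in both. Support in both replicates was 58.3% of 434 peaks at head-to-head promoters, higher than in the members (odds ratio of members 0.655, Fisher's exact test, two-sided, with p = 0.00342 after adjustment over 3 classes). It was 37.1% of 143 downstream peaks at single promoters, lower than in the members (odds ratio 1.56, adjusted exact p = 0.0241), and 41.2% of 983 peaks over 500 bp from any TSS (odds ratio 1.31, adjusted exact p = 0.0190). Peaks are the units of these 3 tests and share the 2 libraries, so the p-values do not measure how replicates vary. The difference from downstream peaks was not past 0.05 with a TSS window of 1000 bp (adjusted exact p = 0.0516) or when at least 50% of the peak had to be covered (adjusted exact p = 0.0581), and that from distal peaks was not with a window of 200 bp (adjusted exact p = 0.127). The median signals of these classes moved in the same order, with 113 at head-to-head promoters, 107 in the members, 102 at distal peaks and 92.2 at downstream peaks, and their part in the support was not tested. Within the members, support was 34.4% within 50 bp of the TSS, 57.8% from 200 to 300 bp upstream and 37.6% farther out.

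Replicate 2 gave the better rank to 336 members and replicate 1 to 230. Head-to-head peaks leaned the same way, with 276 and 156, and downstream peaks had 76 and 66. The distal peaks leaned the other way, with 364 and 607. These counts are a description, since each replicate is 1 library.

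Next, each member's summit was compared with its own flanks. A sequence was counted as present where it occurred on either strand within 100 bp of the summit, and the flanks were 400 to 500 bp away on both sides, with equal length in total. Of 25 fixed motifs, 4 (16%) were more frequent at summits and 1 (4%) was rarer there (McNemar's exact test, two-sided, adjusted over the 25 at a threshold of 0.05). The units of these tests are peaks, so the p-values say nothing of how embryos vary. The rule places each summit within 500 bp of a TSS, so summit windows and flanks also differ in their distance from the start. At all 14932 coding TSSs outside head-to-head pairs, the DRE had 0.470 occurrences per kb from -50 to 0 bp. From -500 to -400 bp it had 0.0569 per kb. The part of position alone in the differences below was not tested.

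Ohler motif 7, spelled CAGCNCTA or CAGCNCTG (N is any base), had the smallest p. It was at 58 summits (10.2%) and in the flanks of 12 members (2.10%, adjusted exact p = 8.86e-08). The TATA string TATAAA was at 190 summits (33.3%) and in 123 flanks (21.5%, adjusted exact p = 0.000200). The DRE was at 31 summits (5.43%) and in 7 flanks (1.23%, adjusted exact p = 0.000968), and its inner CGATA, a core of sites for the insulator protein BEAF-32 that the DRE also contains, was at 185 summits (32.4%) and in 140 flanks (24.5%, adjusted exact p = 0.0178). The CA repeat CACACACA was rarer at summits, at 26 against 53 flanks (adjusted exact p = 0.0132). The GAGA element GAGAGA was at 82 summits (14.4%) and in 66 flanks (11.6%), a difference that did not pass the test (adjusted exact p = 0.535). The Zelda site CAGGTA, bound by the factor that opens the early embryonic genome, was at 22 summits and in 26 flanks (adjusted exact p = 0.893). In the 295 members above the list's median signal, the DRE difference was 0.678 percentage points (adjusted exact p = 1) and the CGATA difference 0 (adjusted exact p = 1), and neither passed. The DRE call was also lost in replicate 2's own list (adjusted exact p = 0.509), against the upstream flank alone (adjusted exact p = 0.392) and within 50 bp of the summit (adjusted exact p = 0.320). The CGATA and CA repeat calls were lost against the upstream flank too (adjusted exact p = 0.293 and 1), as well as in replicate 1's own list (adjusted exact p = 0.0563 and 0.569). The CGATA call was lost in replicate 2's own list too (adjusted exact p = 0.323). The CA repeat call was lost within 50 bp of the summit (adjusted exact p = 0.320) and above the median signal (adjusted exact p = 0.0790). Among the 273 members supported in both replicates, none of these 3 calls held (adjusted exact p = 0.969 for the DRE, 1 for CGATA and 0.828 for the CA repeat), and the CA repeat call was also lost in members with no other gene's TSS within 500 bp (adjusted exact p = 0.102).

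Among all 2080 6-mers, 82 (3.94%) were more frequent at summits and 68 (3.27%) were less frequent by the same test. The split followed base composition. Of the 82 words, 56 held at most 1 G or C, and of the 68 words, 64 held 3 or more. The members held 38.7% G and C within 100 bp of the summit, 39.8% in the upstream flank and 46.0% in the downstream flank, which for a member at the median position lies past the TSS. When the part of the window upstream of the summit was set against the upstream flank alone, which also shortens both, 15 words passed, of which 13 had passed before.

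Of the 5 words with the smallest p, TTAAAA was at 267 summits (46.8%) and in 161 flanks (28.2%, adjusted exact p = 1.42e-07). The word ACAGTG, the only one of the 5 with a G or C, was at 123 summits (21.5%) and in 45 flanks (7.88%, adjusted exact p = 2.33e-07). The other three were made of A and T: ATTTAA was at 44.8% of summits and in 27.7% of flanks (adjusted exact p = 5.83e-07), TTTAAA at 31.7% and 17.3% and ATTTTA at 42.9% and 26.4% (adjusted exact p = 4.52e-06 for each). ACAGTG differed by 13.7 percentage points and passed under every alternative run, the upstream flank included. A further word, CGATAG, named after its value was seen, was at 80 summits (14.0%) and in 28 flanks (4.90%, adjusted exact p = 6.82e-05). It did not pass against the upstream flank (adjusted exact p = 0.421), in replicate 2's own list (adjusted exact p = 0.0576), above the median signal (adjusted exact p = 0.399) or among members supported in both replicates (adjusted exact p = 0.448).

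The words differed in where they sat. Overlapping matches were each counted, so a long repeat such as the TC repeat at CG18549 adds several to a density. ACAGTG was sparser on the summit itself than beside it: its density was 0.841 per kb of sequence within 25 bp, 1.72 per kb from 75 to 100 bp and 0.490 per kb from 150 to 200 bp. Within 150 bp of the summit, 74 members held it on the upstream side, 105 on the downstream side and 28 on both. Among the steps around the summit, CGATAG was densest within 25 bp, at 1.16 per kb, against 0.455 per kb from 150 to 200 bp. Its density was higher still near the TSS, at 1.44 per kb from -100 to -50 bp and 1.54 per kb from -50 to 0 bp. At all 14932 coding TSSs outside head-to-head pairs, CGATAG had 1.24 per kb from -50 to 0 bp. GAGAGA followed the start rather than the summit. Its density was 4.94 per kb from -100 to -50 bp of the TSS and 1.44 per kb in the next 50 bp, but 1.23 per kb within 25 bp of the summit and 2.45 per kb from 100 to 150 bp. The A/T word TTAAAA lay mostly on the upstream side, as at 70 and 25 occurrences between 75 and 100 bp up- and downstream of the summit. This lean was not particular to the summit, with 107 and 37 from 150 to 200 bp and 176 and 82 from 300 to 400 bp.

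**Figure D3:**
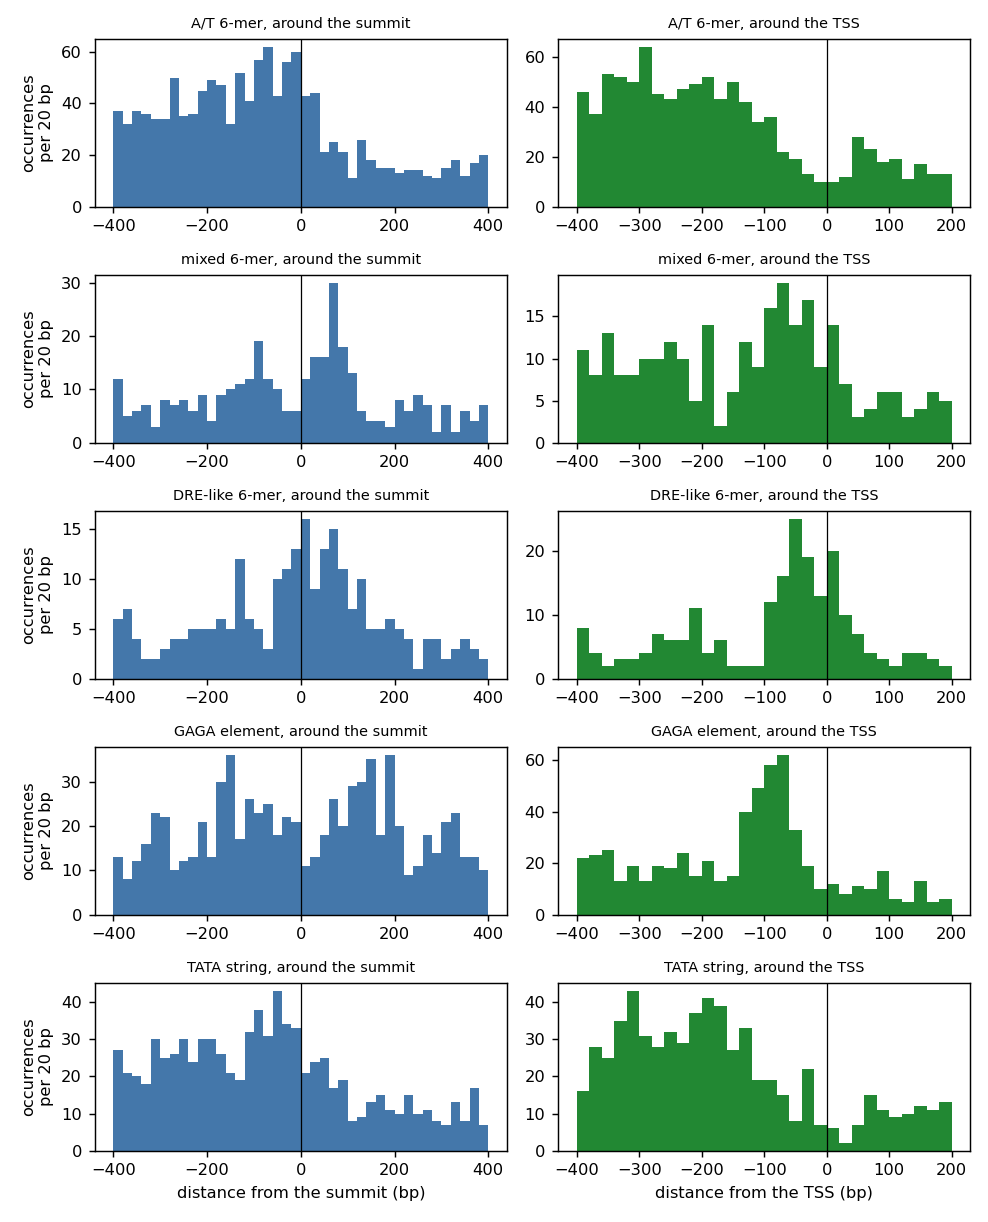
Occurrences per 20 bp of 5 sequences around the summits (left, negative is upstream) and around the nearest TSSs (right) of the 571 members. From the top, the rows show TTAAAA, the mixed word ACAGTG, the DRE-like word CGATAG, the GAGA element and the TATA string. ACAGTG is sparse at the summit and densest to its sides, and GAGAGA forms 1 block 50 to 150 bp before the TSS.

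Set beside all 14932 coding TSSs outside head-to-head pairs, the starts of members held more GAGAGA and fewer TATA strings at the usual place of a TATA box. The densities at members are over the nearest TSSs of all 571, of which 530 were at coding genes. A TSS shared between members counted once for each, and the coding TSSs of members are also among the 14932. From -100 to -50 bp, GAGAGA had a density of 4.94 per kb at members and 2.06 per kb at all such TSSs. The excess was not confined to this step. Densities were 1.72 and 0.615 per kb from -500 to -400 bp, and 1.16 and 0.508 per kb from 50 to 100 bp after the TSS. From -200 to -150 bp they were closer, at 1.51 and 1.12 per kb. Overlapping matches within a repeat each counted here too. In the last 50 bp before the TSS, TATAAA had 1.19 per kb at members and 2.79 per kb at all. From -200 to -150 bp the order turned, with 3.19 and 2.36 per kb. ACAGTG had 1.58 and 0.572 per kb from -100 to -50 bp. In the window from 250 bp before to 50 bp after the TSS, 25.2% of 516 coding member promoters and 13.1% of all held ACAGTG, and 26.6% and 16.5% held GAGAGA. For Ohler motif 7 these shares were 12.8% and 7.88%, for the DRE 7.36% and 5.24%, and for TATAAA 36.6% and 40.7%. They are descriptions, and a match of letters is not a bound site. The GC content of this window was 42.3% at member promoters and 40.9% at all.

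Of 75 comparisons of a motif's share at summits between members and another class of peak, 10 (13.3%) passed (Fisher's exact test, two-sided, adjusted over the 75 at a threshold of 0.05). The GAGA element was at 14.4% of members, 13.8% of distal and 9.79% of downstream peaks. Neither of these differences passed (adjusted exact p = 0.946 and 0.378). It separated members from head-to-head promoters only, where its share was 2.53% (odds ratio 6.45, adjusted exact p = 3.75e-10). The DRE went the other way there, at 5.43% against 10.8% (odds ratio 0.473, adjusted exact p = 0.0183), as did CGATA at 32.4% against 45.9% (adjusted exact p = 0.000227) and the homeodomain core TAATTA at 14.7% against 21.7% (adjusted exact p = 0.0382). Both of the first were lost with a TSS window of 200 bp (adjusted exact p = 0.294 and 0.103), and so was TAATTA (adjusted exact p = 0.0507). Within 50 bp of the summit these 3 also missed the threshold (adjusted exact p = 0.680, 0.540 and 0.346), and TAATTA did in replicate 1's own list (adjusted exact p = 0.138).

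Against distal peaks, members held the DRE more often, at 5.43% against 0.203% (odds ratio 28.2, adjusted exact p = 3.34e-10). They also held more CGATA (19.2% in distal peaks, adjusted exact p = 2.21e-07), Ohler motif 7 (3.66%, adjusted exact p = 8.29e-06) and the core of Ohler motif 1, GGTCACAC, at 2.63% against 0.407% (adjusted exact p = 0.00444). They held fewer A tracts of 7 bases, at 19.8% against 26.0% (adjusted exact p = 0.0404). By rule, members lay within 500 bp of a TSS and distal peaks did not, so the classes also differ in distance from the start. Of 13216 coding promoters with no thresholded summit within 1000 bp, 4.96% held the DRE from 250 bp before to 50 bp after the TSS. This share was 40.3% for CGATA, 7.44% for Ohler motif 7 and 4.02% for the core of Ohler motif 1. The part of position alone in these differences was not tested. In replicate 2's own list neither Ohler motif passed (adjusted exact p = 0.0788 for each), and Ohler motif 7 did not within 50 bp of the summit (adjusted exact p = 0.122). The A tract call was lost in 5 of 6 alternatives (adjusted exact p between 0.0638 and 0.540). The only call against downstream peaks was CGGACG, a string of the downstream promoter element, at 2.45% in members and 8.39% in downstream peaks (adjusted exact p = 0.0183). It was not past 0.05 in replicate 1's own list (adjusted exact p = 0.0864). ACAGTG, not among the fixed motifs, was at 21.5% of members, 16.8% of head-to-head, 23.1% of downstream and 22.6% of distal summits.

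**Figure D4:**
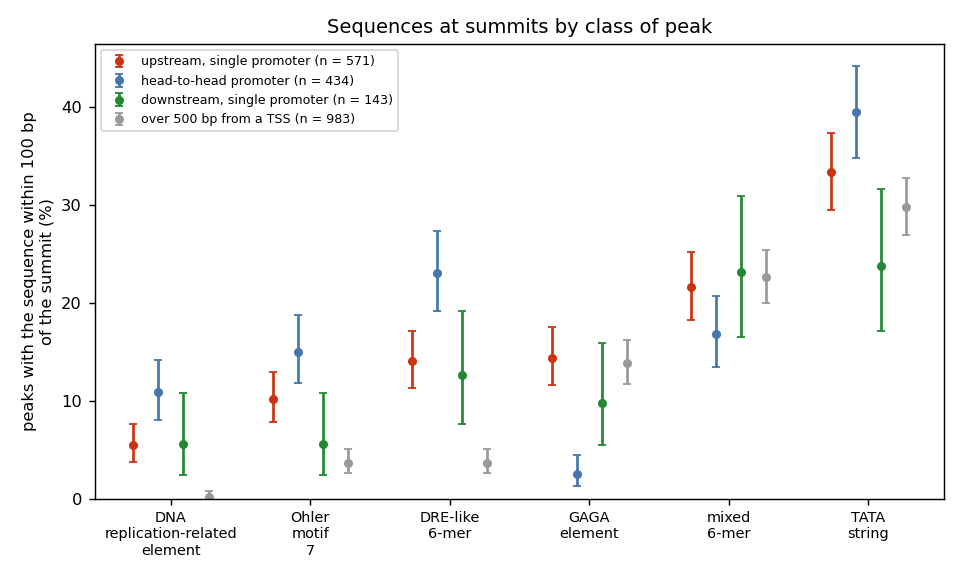
Share of peaks with each of 6 sequences within 100 bp of the summit, by class of peak. Points are percentages and bars are exact 95% binomial intervals over peaks, which cover counting error only. GAGA elements are at 14.4% of members, 13.8% of distal, 9.79% of downstream and 2.53% of head-to-head peaks. The DRE is at 5.43% of members and 0.203% of distal peaks.

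Of the 31 summits with a DRE and the 82 with a GAGA element, 1 held both (3.23% and 1.22%), which was not tested and is a small number to read from shares this low. The 31 DRE holders had a median position of -67 bp, a median signal of 80.1 and support in both replicates of 25.8%. The 540 others had -156 bp, 109 and 49.1%. DRE was at 14.3% of the 168 summits within 100 bp of the TSS, at 2.40% of the 208 from 100 to 200 bp and at 1.03% of the 195 farther ones. It was at 1.40% of the 143 strongest members and at 9.79% of the 143 weakest. The strongest holders were CG11151 (210), eEF1gamma (185), which encodes a subunit of a translation elongation factor, and Nsun5 (165), which encodes an RNA methyltransferase.

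The 82 holders of GAGAGA lay farther out, with a median position of -169 bp and a median signal of 106, and their genes were longer, with a median of 11594 bp against 5427 bp for the members without it. The strongest were px, lawc and CG18549. The 123 holders of ACAGTG had a median position of -161 bp and a median signal of 124, and 55.3% of them had support in both replicates, against 103 and 45.8% for the others. The strongest of these were px, pyd and lncRNA:CR43651. These splits were made after the values were seen and were not tested.

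The members belonged to 540 genes, of which 511 had 1 member and 29 had more. Rtnl1 had 4 members, each at another TSS, with signals of 543, 177, 125 and 90.2. Protein-coding genes held 530 members and noncoding RNA genes 37, and the remaining 4 were at 2 tRNA genes, a snoRNA gene and an snRNA gene. Of 10854 coding genes with a TSS outside head-to-head pairs, 500 (4.61%) had a member, and of 3289 noncoding RNA genes, 36 (1.09%) had one. Coding genes with a member had a median length of 5826 bp, against 2282 bp for all, and 54.4% against 29.6% had more than 1 TSS. A gene with more TSSs offers more windows to hold a summit, and its part in the counts below was not tested.

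The 23 gene lists were drawn up with earlier results of these data known and are read beside that 4.61% without a test. Several lists of developmental regulators lay above it. Of 56 homeodomain genes, 10 (17.9%) had a member: Dll, then pb (330), a Hox gene of the mouthparts, and tin (274), which specifies heart and visceral muscle, lead them. Of the 24 genes placed on the neurogenesis list, 5 (20.8%) had one. The strongest were Sox14 (594), elav (372), an RNA-binding protein of neurons, and Sox100B (167). The Notch pathway had 3 of 14: numb (299), an inhibitor of the receptor, gro (281), the corepressor Groucho, and Su(H) (80.9), the DNA-binding effector. The Hedgehog and Wingless pathways had 3 of 18: sgg (133), the GSK3 kinase, nkd (120), a Wingless inhibitor, and ptc (99.95), the Hedgehog receptor.

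The other signalling and patterning lists, with 1 or 2 genes each, also lay above 4.61%. The Dpp and Activin pathways had 2 of 14 (14.3%), brk (203), a repressor of Dpp targets, and Mad (75.7), the Smad that carries the Dpp signal. The receptor tyrosine kinase list had 2 of 24 (8.33%), spi (160), an EGF receptor ligand, and aos (108), its inhibitor. The Hippo list had 1 of 8 (12.5%), sd (69.8), the DNA-binding partner of Yorkie, and the JAK-STAT and Toll list had 1 of 12 (8.33%), cact (175), the inhibitor of Dorsal. Early patterning factors had 2 of 22 (9.09%), btd (80.5) and ush (74.2).

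Lists of genes used by most cells fell to both sides of the background. Of 56 cytoplasmic ribosomal protein genes, 11 (19.6%) had a member, led by RpL23A (172), RpS28b (135) and RpL30 (124). Cell cycle and DNA replication genes had 6 of 31 (19.4%), led by RnrS (253), a subunit of the enzyme that makes deoxynucleotides, Dp (187), which pairs with E2F proteins, and Mcm2 (82.4), a helicase subunit. Translation factors had 5 of 45 (11.1%), led by eEF1gamma, eEF1alpha1 (144) and eEF5 (77.4). Mitochondrial ribosomal proteins had 2 of 20, mRpL41 and mRpL4 (75.4). Oxidative phosphorylation had 0 of 58 genes, aminoacyl-tRNA synthetases 0 of 13 and mitochondrial import 0 of 11.

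The remaining lists lay between 2.44% and 11.1%. They held the insulator and promoter-binding genes row (156) and Trl (58.9), the gene of the GAGA factor, which is also on the Polycomb and trithorax list beside skd (70.6). They also held deltaCOP (105), Syx4 (102) and Rab5 (60.9) of vesicle traffic, Taf4 (93.8) of the general transcription machinery, Prosalpha3 (86.2) of the proteasome, B52 (80.8) of splicing and E(bx) (72.8) of chromatin remodelling.

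**Figure D5:**
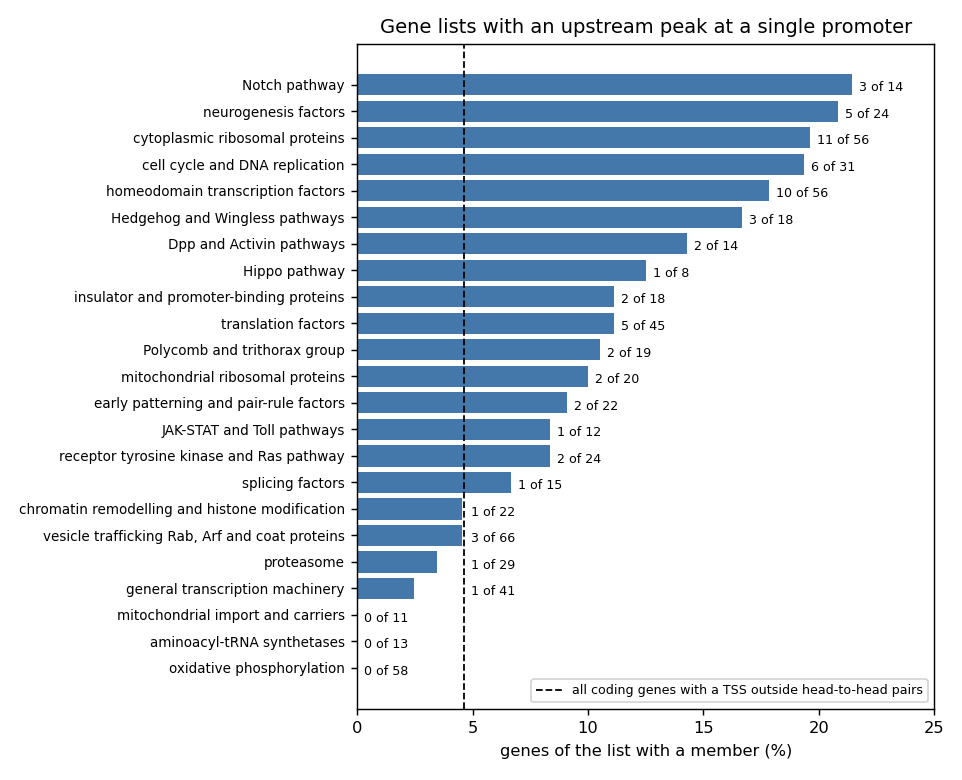
Percentage of each list's genes, among those with a TSS outside head-to-head pairs, that had a member, with the counts at the bars. The dashed line is the 4.61% of all such coding genes. Homeodomain, neurogenesis, Notch, ribosomal protein and cell cycle lists lie between 17.9% and 21.4%, and 3 lists lie at 0.

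CG8765, the gene of the tagged protein, is no member, because its TSS belongs to a head-to-head pair. A peak of the list had its summit 42 bp from that TSS. At the 500 bp limit the nearest members inside were CG17896 at -500 bp (signal 297) and OtopLa at -497 bp (10.4), and just outside were ph-p at -505 bp (1403) and nuf at -506 bp (7.37). At the TSS itself the nearest members were CG4497 at -4 bp (209) and CG10555 at -5 bp (14.4), and just outside were Mrp5 at 0 bp (76.2) and RpS15Aa at 1 bp downstream (97.5). Next to the limit on head-to-head pairs, CG42837 at 512 bp (127) and CG17233 at 529 bp (87.0) were members, and eff at 496 bp (63.4) and RabGGTb at 493 bp (86.1) were not. Signals under 30 were seen in 20 members, and 19 of these overlapped a stronger peak of the same list. The 571 intervals joined into 552 separate regions.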

How the data were processed

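The deposited interval files are on build dm6, per the labels. Per the text deposited with the samples, alignments of the 2 replicates and of a control lie behind the series' lists, and those of 1 replicate and a control behind its own. No source used here names the aligner or the peak caller. Each peak has a signal, the authors' deposited value with unstated scaling, a score that the authors set from the IDR (up to 1000), and the deposited offset of its summit from the interval's start. The 20 further columns of values in the series' ranked lists, which no label maps to a sample, were not used. Read counts were not used here, so depth is unknown and signals carry no interval.

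From these, summits were placed against TSSs of Ensembl annotation 115 without transposable elements (TSS window and pair distance 500 bp), and sequence was read from the RefSeq copy of the same build. Gene length is the annotated span. McNemar and Fisher's exact tests are two-sided with Benjamini-Hochberg adjustment and a threshold of 0.05, and the test functions were tested on simulated data. The members, motifs and gene lists were chosen with earlier results of these data known. Named members were, by rule, the 20 with the highest signal, the 3 strongest of each gene list (all where it had fewer genes), those nearest each limit, the 3 widest, the 5 with the best mean rank, and CG8765. The 6-mer CGATAG, the strongest holders of a motif, the sequences profiled, the bins of position and signal, and the limit of 30 were chosen after values were seen. Alternatives were the less strict list, each replicate's own list, other TSS windows, pair distances, flanks and summit windows, joined members, and members above the median signal. Members supported by both replicates and members with no other gene's TSS within 500 bp were added after seeing the data. Tests ran in SciPy 1.17.1 under Python 3.11.15, with tables in pandas 2.3.3, arrays in NumPy 2.4.6 and plots in matplotlib 3.10.9.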

Additional observations from a re-analysis of the deposited data

How the results depend on the processing

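The number of members was 571 and stayed within 1.5 times that except above the list's median signal (295). The median position of -149 bp was -105 bp with a TSS window of 200 bp, -175 bp with 1000 bp, -159.5 bp with head-to-head pairs up to 1000 bp, -166 bp above the median signal, and -163 and -150 bp in the lists of replicate 2 and replicate 1 alone. The 5 motifs past the threshold became 3 in either replicate's own list, 2 against the upstream flank, 3 within 50 bp of the summit, 2 above the median signal and 2 among the 273 members supported in both replicates. Ohler motif 7, TATAAA and the 5 named 6-mers passed in every one of these. The 150 6-mers became 94 in replicate 1's own list and 112 in replicate 2's, 90 with flanks 300 to 400 bp away, 15 against the upstream flank, 56 within 50 bp, 52 above the median signal, 35 with support in both replicates and 73 with no other gene's TSS near. The 10 differences between classes became 6 with a TSS window of 200 bp and 5 within 50 bp of the summit. The excess of replicate support over downstream peaks was 7.73 percentage points with a TSS window of 1000 bp and 9.17 with at least 50% of the peak covered, and that over distal peaks 4.52 with a window of 200 bp, none past 0.05. The cause of these changes was not tested. No result turned its direction. Unknown depth sets the precision of every signal. No paired analysis was possible because the series holds 1 group.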

Other observations

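The Ugalt and CG14100 windows share the word TGGGCGT, which was noticed by eye in the printed sequences. It was at 11 of the 571 member summits and in 16 flanks, so it was not more frequent at summits. It was at 3 of the 20 strongest members (Ugalt, CG14100 and CG1888), and its 11 holders had a median signal of 275. The word was picked because Ugalt and CG14100 share it, so neither value can show a link with signal. It was at 2 of the 20 strongest head-to-head peaks and at 0 of the 20 strongest in the downstream and distal classes. Words of 7 and 8 bases over all peaks and 6-mers at the strongest peaks were also looked at by eye, and none is reported.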
